A study of Prunus persica with 2 samples.

Results

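miR858, miR159 and miR319 are plant miRNAs known for transcription factor targets, and they were examined here with the transcripts at which the degradome of peach fruit placed their cleavage. The members are the 3 miRNA names among 886 listed names, and all 11 miRNA and transcript pairs in which they occur among 469 listed pairs, on 11 of 379 transcripts. Of these 11 transcripts, 7 were chosen by identifier, 6 of them described as MYB transcription factors, and the remaining 4 (ppa008877m, ppa007118m, ppa005691m and ppa017436m) are included because they are listed with the same miRNAs. Here and below, transcripts described as MYB include ppa017136m, whose description names TT2, a MYB protein, without the word MYB. The material was fruit of yellow-fleshed ‘Troubadour’ peach (spelled ‘Troubador’ in the labels), collected on 5 dates from 35 to 105 days after full bloom and pooled. It gave 1 small RNA library and 1 degradome library, so a value describes fruit development as a whole, no stage can be told from another, and no difference has a replicate check. The small RNA list holds 2308209 reads and the degradome list gives reads at its sites only.

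A plant miRNA guides Argonaute to a closely paired stretch of an mRNA, which is then cut opposite the middle of the miRNA, and a degradome library reads the cut ends. In Arabidopsis and several fruit crops miR858 is known for R2R3-MYB targets, many of which control flavonoids, the pigments and tannins of fruit skin and flesh. miR159 is known for GAMYB-like genes, which act in gibberellin and abscisic acid responses, and miR319, which is related to it in sequence, is known above all for TCP genes of leaf growth.

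The mature sequences are shown because a target is found through its pairing with them. They are written 5′ to 3′ as deposited, with the seed, bases 2 to 8, in capitals.
miR858: uUCGUUGUcuguucgaccuga
miR159: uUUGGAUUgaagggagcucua
miR319: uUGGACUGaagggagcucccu
Each is 21 nt long, and neither its whole sequence nor its seed occurs under any other of the 886 names. miR159 and miR319 overlap with a shift of 1 base, and 17 of the 20 overlapping bases are the same, including the run UGAAGGGAGCUC from base 8 of miR159 and base 7 of miR319. miR858 is unlike both of them, with 8 of 20 bases the same as miR159 and 6 of 21 the same as miR319 at the best shift. miR159 and miR319 have the sequence of ath-miR159a and ath-miR319a of Arabidopsis. miR858 differs from ath-miR858b at its last 2 bases, U20G and G21A, with the Arabidopsis base first and positions counted from the 5′ end, so the seed is that of Arabidopsis.

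miR858 had far more reads in the fruit small RNA library than the other 2 miRNAs. It had 12878 small RNA reads (95% Poisson interval 12656 to 13102), or 0.558% of all listed reads (exact 95% interval 0.548 to 0.568%). miR159 had 719 reads (667 to 774), or 0.0311% (0.0289 to 0.0335%). miR319 had 4 reads (1.09 to 10.2), or 0.000173% (4.7e-05 to 0.000444%). These intervals, and all others given here, cover counting error only, since reads copied by PCR and not marked with molecular identifiers can stem from the same molecule. How evenly the small RNA library took up the different sequences was not tested, so reads of unlike miRNAs need not stand in the ratio of their levels. Each name is listed with a single sequence, so these counts and their ratios may leave out reads of other family members or variants.

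The reads of miR858 were 17.9 times those of miR159, with a counting interval of 16.6 to 19.3. Against miR319 the ratio was 3220 for miR858 (1257 to 11818) and 180 for miR159 (69.9 to 662). miR858 ranked 7th among the 886 names, and its interval overlaps neither that of miR168 above it (14591 reads) nor that of miR396 below it (10991 reads). miR159 ranked 30th, and its interval overlaps those of its neighbours miR2911 (739 reads) and the predicted miRNA m0059 (710 reads). miR319 was 1 of 19 names with 4 reads, 443 names stood above it, and the median name had 4.5 reads. miR828, the remaining plant miRNA well known for MYB targets, has no row in either list, which sets no limit on its level.

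**Figure D1:**
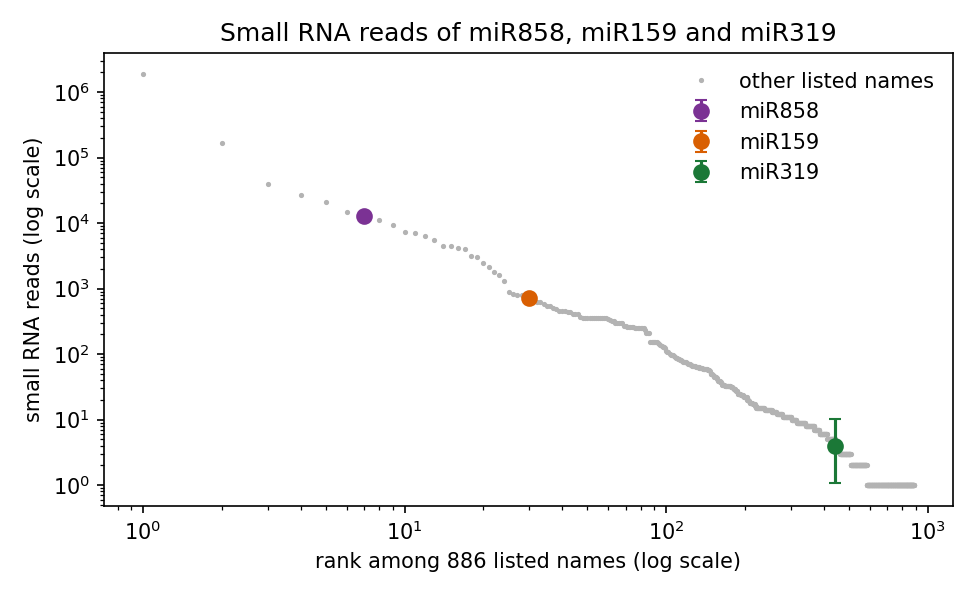
Small RNA reads (vertical, log scale) of the 886 listed names against their rank (horizontal, log scale), with miR858, miR159 and miR319 as coloured points with 95% Poisson intervals and the other names in grey. miR858 stands at rank 7 with 12878 reads, miR159 at rank 30 with 719, and miR319 lies with the many names of a few reads.

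In the degradome, the transcripts listed with miR858 had 84, 21, 16, 5 and 4 reads at their sites, those of miR159 had 12, 8, 5, 4 and 2, and the transcript of miR319 had 22. A read count here is the number of reads that start at 1 nucleotide, so transcript length does not enter it. The level of each transcript does, and it was not measured. Reads of unlike transcripts, here and below, therefore need not stand in the ratio of their cleavage. The ranges of miR858 and of the other miRNAs overlap, with a median of 16 reads over the 5 pairs of miR858 against 6.5 over the 6 pairs of miR159 and miR319 and 2 over all 469 pairs. Transcripts are not replicates, so these medians carry no test. By sum, miR858 held 71.0% of the 183 reads at the 11 sites (exact 95% interval 63.9 to 77.5%), and 84 of its 130 reads lie on a single transcript.

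ppa016135m, whose best match is Arabidopsis MYB4, a repressor of phenylpropanoid genes, had the 84 reads (67.0 to 104.0) at nucleotide 306. It lies on scaffold 5 at 7962817 to 7963697, and its site ranks 14th by reads among the 469 pairs. ppa022465m, matched to MYB101, a GAMYB-like factor known from pollen tubes and abscisic acid responses, had 21 reads (13 to 32.1) at nucleotide 375 and lies on scaffold 4 at 13454465 to 13457339. ppa017136m, matched to TT2, the activator of tannin synthesis in the Arabidopsis seed coat, had 16 reads (9.15 to 26.0) at nucleotide 300 and lies on scaffold 7 at 19182031 to 19183267. The reads of ppa016135m were 4.0 times those of ppa022465m (2.46 to 6.80) and 5.25 times those of ppa017136m (3.05 to 9.60). ppa022465m and ppa017136m did not differ beyond counting error, with a ratio of 1.31 (0.653 to 2.69).

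The other transcripts of miR858 had few reads. ppa022205m, matched to MYB7, a relative of MYB4, had 4 reads (1.09 to 10.2) at nucleotide 300, the same nucleotide number as in ppa017136m, and lies on scaffold 1 at 34672893 to 34673990. ppa008877m, for which the sources used here give no description, had 5 reads (1.62 to 11.7) at nucleotide 324. Scaffold places and MYB names were taken from the study's target tables, where a name is that of the best matching protein, and no source used here names the genome release.

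The MYB transcripts of miR159 had fewer reads than the leading ones of miR858. ppa003628m, matched to MYB33, a GAMYB-like factor known in Arabidopsis as a main target of miR159, had 5 reads (1.62 to 11.7) at nucleotide 970 and lies on scaffold 2 at 4032453 to 4035884. ppa017451m, matched to MYB101 and rice GAMYB, had 2 reads (0.242 to 7.22) at nucleotide 964 and lies on scaffold 3 at 16538702 to 16541126. Although both are matched to MYB101, ppa022465m of miR858 had 10.5 times the reads of ppa017451m of miR159 (2.57 to 92.4), and each is listed with its own miRNA alone. The lowest MYB of miR858, ppa022205m, was not told apart from ppa003628m, with a ratio of 0.800 (0.159 to 3.72).

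The remaining transcripts of miR159 are not described as MYB. ppa007118m, matched to an Arabidopsis protein of unknown function, had the most reads of miR159, 12 (6.20 to 21) at nucleotide 62. ppa005691m had 8 reads (3.45 to 15.8) at nucleotide 745, and ppa017436m had 4 (1.09 to 10.2) at nucleotide 568, both matched to predicted poplar proteins. With ppa008877m, which has no description, counted among them, transcripts not described as MYB held 5 of the 130 reads at miR858 sites. At miR159 sites they held 24 of 31. The descriptions of these miR159 transcripts do not say what the proteins are, and whether any is a MYB was not tested.

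ppa004612m, listed with miR319 and not described in the sources used here, had 22 reads (13.8 to 33.3) at nucleotide 1250. This count was 1.83 times that of ppa007118m, the highest site of miR159, within counting error (0.869 to 4.06), and it was close to that of ppa022465m (ratio of ppa022465m to ppa004612m 0.955, interval 0.499 to 1.82). By small RNA reads the order of the 3 miRNAs was miR858, miR159 and miR319. By summed degradome reads miR858 stood first, while the intervals of miR159 (31 reads, 21.1 to 44.0) and miR319 (22 reads, 13.8 to 33.3) overlap. These sums also depend on the number of sites. miR858 had 12878 small RNA reads beside 130 degradome reads over 5 sites, miR159 had 719 beside 31 over 5 sites, and miR319 had 4 beside 22 at 1 site. The reads come from separate libraries, so their ratio is not a rate of cleavage.

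**Figure D2:**
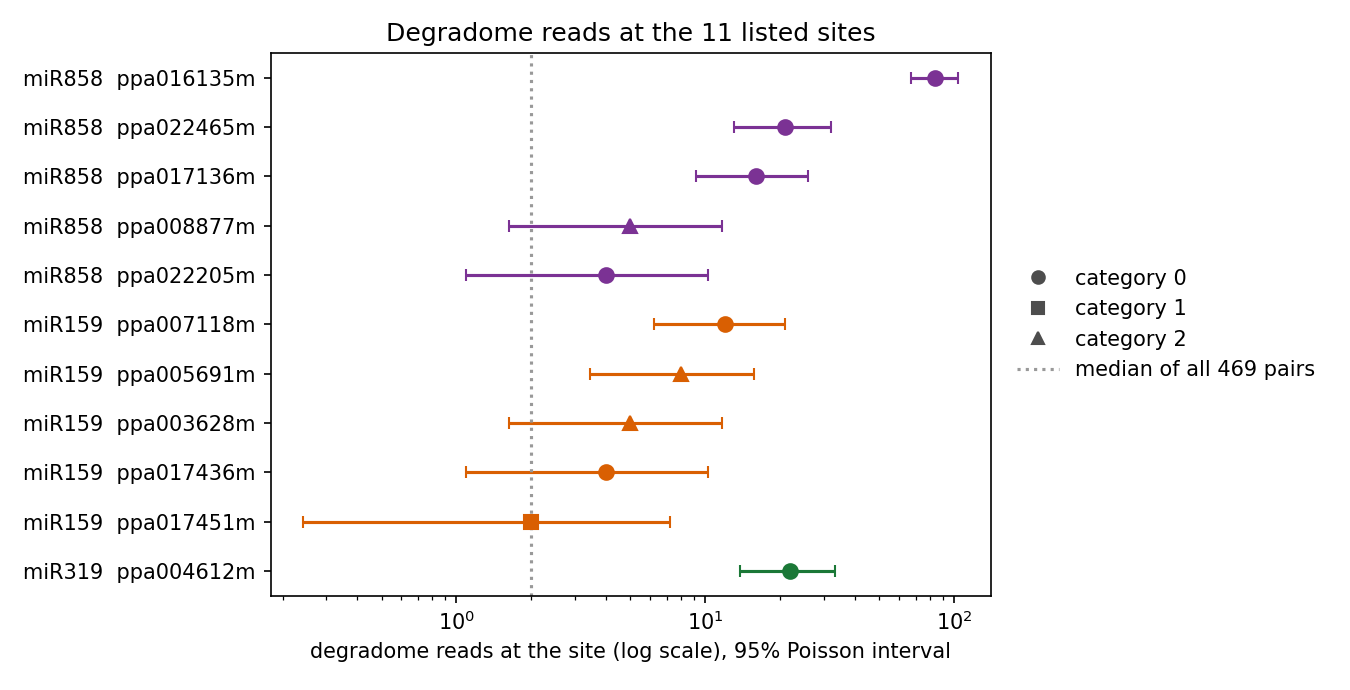
Degradome reads at the site (horizontal, log scale) of the 11 pairs, with 95% Poisson intervals, colour for the miRNA and marker shape for the peak category, beside the median of all 469 pairs (dotted, 2 reads). ppa016135m stands alone at 84 reads, ppa004612m, ppa022465m and ppa017136m follow at 22, 21 and 16, and 2 of the 3 lowest points belong to miR159.

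CleaveLand, the program that made the list, sorts each site by how it stands among the reads of its own transcript. A site is category 0 where no other position has as many reads, 1 where it shares the maximum, 2 where it only exceeds the median, and 4 where it rests on a single read. Category 0 held 7 of the 11 sites, against 14.5% of the 469 pairs. Of the 5 sites of miR858, 4 were category 0, namely those of ppa016135m, ppa022465m, ppa017136m and ppa022205m, and that of ppa008877m was category 2. Of the 5 sites of miR159, ppa007118m and ppa017436m were category 0, ppa017451m was category 1, and ppa005691m and ppa003628m were category 2. The site of ppa004612m was category 0. None of the 11 sites (0) rested on a single read, while 47.3% of all pairs did. This is not particular to the members, since miR165, miR166 and miR397 have no such site either, while miR156 and miR396 do. At least 5 reads were found at 8 of the 11 sites, against 29.4% of all pairs. At each of the 11 sites the authors' normalized reads equal the raw reads, as they do in 78.7% of all pairs.

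The authors' p, which is not adjusted for the number of pairs, was under 0.05 for 8 of the 11 pairs, while 18.6% of all 469 pairs had such a p. These were 4 of 5 for miR858, 3 of 5 for miR159 and the pair of miR319. Among the 22 names with at least 5 pairs, the share of miR858 was equalled by the predicted m0091 and m0126, which share a sequence, and exceeded by none. This cut stands at the number of pairs of miR858 itself. It leaves out names with fewer pairs, such as miR319, whose only pair had a p under 0.05, so it is no ranking of all names. The MYB transcripts held 5 of these 8 pairs. ppa016135m, ppa022465m and ppa017136m all have the authors' p = 0.0205, ppa022205m has p = 0.0156 and ppa008877m has p = 0.734. For miR159, ppa007118m and ppa017436m have the authors' p = 0.0208, ppa017451m p = 0.0176, ppa005691m p = 0.220 and ppa003628m p = 0.829. The pair of ppa004612m has the authors' p = 0.00327, the lowest in the list, which it shares with 1 pair of miR164 and 1 of miR395.

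These p-values do not follow the read counts. The 84 reads of ppa016135m and the 16 of ppa017136m carry the same p, and ppa017451m with 2 reads has a lower p than ppa003628m with 5. In the list, known miRNA pairs with the same miRNA, score and category had 1 p in 54 of 54 such groups, so the p does not tell more reads from fewer within a group.

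The alignment score is a penalty, 0 for full pairing and at most 4 in the list. It was 3 for ppa016135m, ppa022465m and ppa017136m and 3.5 for ppa022205m and ppa008877m, a median of 3 for miR858. For miR159 it was 3 for ppa005691m, 3.5 for ppa007118m, ppa003628m and ppa017436m and 4 for ppa017451m, and for the miR319 site of ppa004612m it was 2.5, so that the median of the 6 pairs was 3.5. The scores of miR858 fall inside the range of the others, and the MYB sites of miR858 scored 3 to 3.5 against 3.5 and 4 for those of miR159. Over all pairs the median score was 4, and 28.6% scored at most 3, as did 5 of the 11. At a score of 3 the 47 pairs of other miRNAs had a median of 2 reads, and 2 of them had more than the 84 reads of ppa016135m. At 2.5 the 17 others had a median of 5, and 3 of them had more than the 22 reads of ppa004612m. At 3.5 the 83 others had a median of 1 read, and 7 of them exceeded the 12 reads of ppa007118m, the highest of the miR858 and miR159 pairs with that score. At 4 the 246 others had a median of 1 read, and 65 of them exceeded the 2 reads of ppa017451m.

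**Figure D3:**
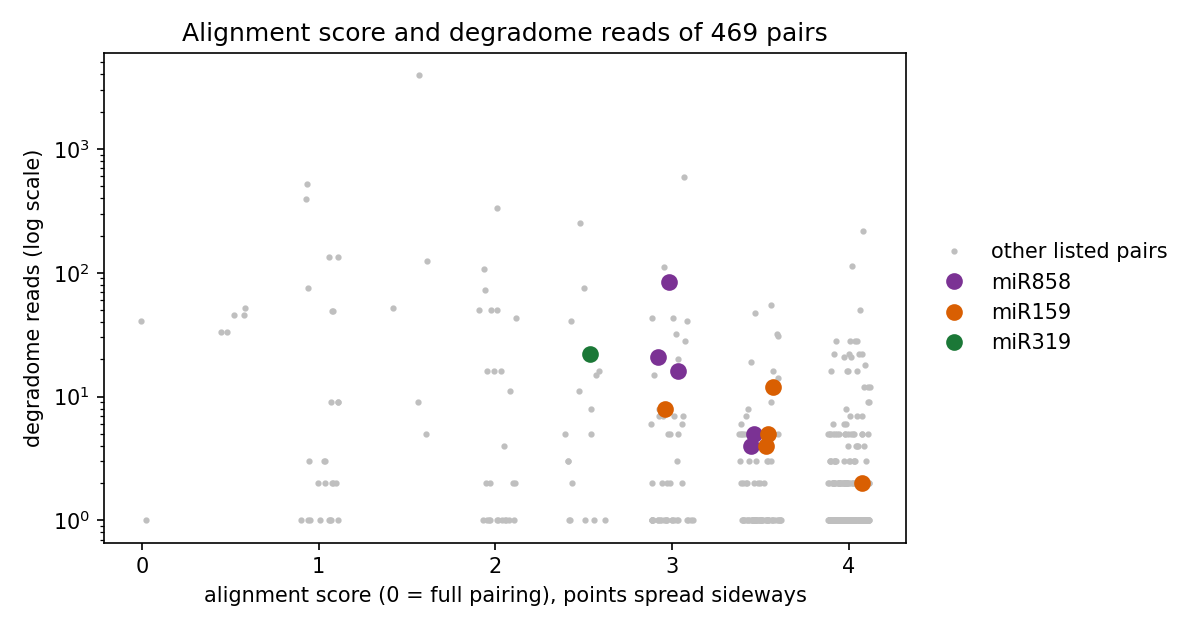
Degradome reads (vertical, log scale) against the alignment score (horizontal, 0 for full pairing) of the 469 pairs, spread sideways within a score, with the pairs of miR858, miR159 and miR319 in colour and all others in grey. The coloured points lie at scores from 2.5 to 4, and that of ppa016135m is near the top of the pairs with a score of 3.

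The sites of miR858 lie close together on their transcripts, and those of miR159 do not. All 5 sites of miR858 fall between nucleotides 300 and 375, a span of 75 nt, with ppa017136m and ppa022205m aligned over the same nucleotides, 289 to 309. The sites of miR159 run over 908 nt, from nucleotide 62 to 970, although its MYB sites, in ppa017451m and ppa003628m, are 6 nt apart. The miR319 site of ppa004612m is the farthest from the transcript start, at nucleotide 1250. Nucleotides are counted from the start of the listed transcript, and whether that start is the same part of the gene in each transcript was not tested.

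**Figure D4:**
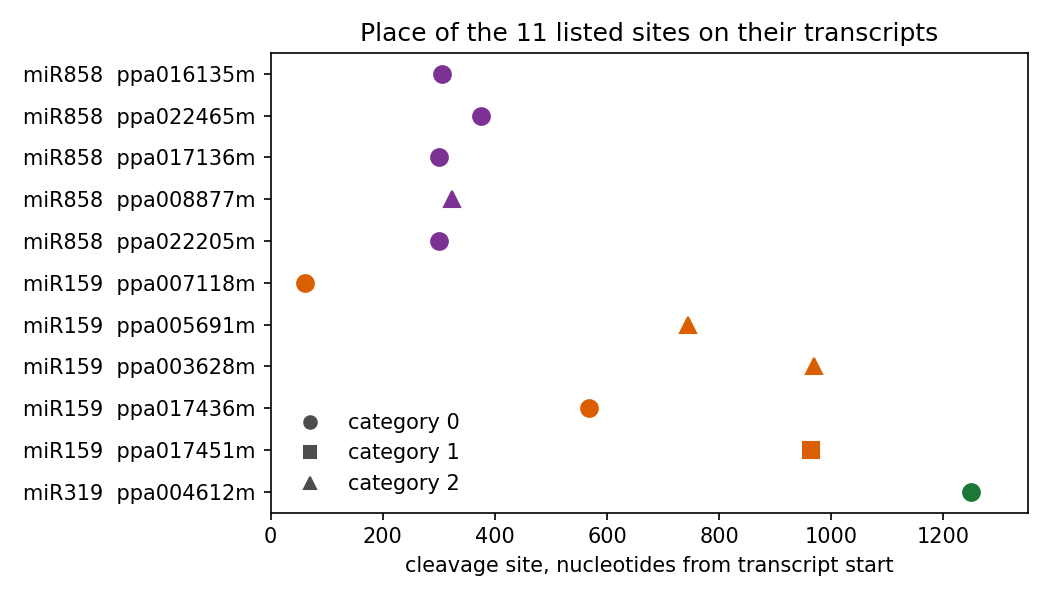
Cleavage site of the 11 pairs, in nucleotides from the transcript start, with colour for the miRNA and marker shape for the peak category. The points of miR858 stand in a narrow column from 300 to 375, those of miR159 are scattered from 62 to 970, and that of miR319 is at 1250.

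With position 1 opposite the 5′ end of the miRNA, the reads began at position 10 in 10 of the 11 pairs, as in 90.2% of all pairs, which the program searches for. The exception was ppa017436m at position 11, where the aligned stretch of 22 nt is 1 longer than miR159. That stretch ends at nucleotide 578, while the study's alignment of the same site ends at 577. The position of this site thus depends on the alignment used. The stretches of ppa016135m, ppa022465m and ppa004612m are 20 nt, 1 shorter than their miRNA, and those of the remaining 7 are 21 nt.

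For miR159 the bases of the sites are given in the study's alignments, and the 4 sites below are shown because they show where each transcript departs from the miRNA. They are transcript strand, 5′ to 3′, with capitals at bases that do not form a Watson-Crick pair with miR159. The last base of a site faces base 1 of miR159.
ppa003628m, nucleotides 959 to 979: uGgagcucccuucaCuccaaU
ppa017451m, nucleotides 953 to 973: CagagcucccuucGaAccaaa
ppa007118m, nucleotides 51 to 71: uagGgcucGcuucaauccaaC
ppa005691m, nucleotides 734 to 754: uagagcCcccuucaaAccaaa
In each of the 4, and in ppa017436m, bases 9 to 12 of miR159, around the point of cleavage, are fully paired in the study's alignments. The study's prediction rules allowed no mismatch at the bases next to that point. The lack of mismatches there was thus set by the rules and is not a finding about these sites. ppa003628m (MYB33) has mismatches at bases 1 and 7 of miR159 and a G:U pair at base 20. ppa017451m (MYB101) has mismatches at bases 6 and 21 and a G:U pair at base 8. ppa007118m has mismatches at bases 1 and 13 and a G:U pair at base 18, and ppa005691m has mismatches at bases 6 and 15. ppa005691m, the best paired with 19 Watson-Crick pairs, was a category 2 site, and ppa007118m, with 18, was category 0.

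A penalty of 1 for a mismatch and 0.5 for a G:U pair, doubled at bases 2 to 13, gave the deposited score in 4 of the 5 sites of miR159. For ppa017436m it gave 6 against the deposited 3.5. The study's alignment of that site has no gap, while the degradome list aligned 22 nt. The same penalty was computed for miR319 along the 81 nt given around each site. It was lowest for ppa003628m, at 4.0 over nucleotides 958 to 978, which places base 10 of miR319 at nucleotide 969, 1 before the listed site. In the other 4 windows it was 7.0 to 9.0, and for miR858 it was 12.5 to 15.5 in the 5 windows. miR319 is listed with ppa004612m alone. The study's alignments were held only in part, without those of miR858 and miR319, so the bases of these sites were not analysed here.

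Of the MYB genes described in the study's target tables among predicted targets of miR858, 4 of 16 have a degradome site in the list, and of those of miR159, 2 of 5. Genes described as TT2 or DUO1 are counted here as MYB genes, although those descriptions do not use the word MYB. Over the described targets of all 31 miRNA families in that table, 52 of 208, or 25.0%, have a site listed under the same family name. Of these families 29 are recorded as complete, and the described targets are only a part of those the study predicted. Counted in the same way, with targets not described as MYB included, the share was 4 of 17 (23.5%) for miR858. For miR159 it was 5 of 11 (45.5%). The share for miR858 is thus close to that of all these described targets. That table holds neither miR319 nor ppa008877m, which is why ppa004612m and ppa008877m go without a description here. With no listed site for miR858 are ppa007594m, matched to MYB111, an activator of flavonol synthesis, ppa023812m, matched to MYB5, which acts with TT2 in Arabidopsis seeds, ppa024074m and ppa019380m, matched to TT2, and 8 others. ppa022205m lies within 18578 bases of scaffold 1 that hold 4 of the predicted miR858 targets, and ppa015883m, ppa023768m and ppa023812m, the other 3, have no listed site. On scaffold 4, ppa019943m, also matched to MYB101, lies 19418 bases beyond ppa022465m and has none. For miR159 the genes with no listed site are ppa016067m, matched to APL, ppa020326m, described as GAMYB, and ppa016603m, matched to DUO1, a MYB of the male germ line. The levels of these transcripts in the fruit were not measured.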

How the data were processed

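Fruit RNA of the sampling dates was pooled by the authors into 1 small RNA and 1 degradome library. Each deposited table belongs to its own sample, and the predicted miRNA names carry the title of the small RNA sample. The deposited small RNA values are raw counts, made by the authors by removing low-quality, adaptor and short reads and reads of other RNA classes and by matching what remained with miRBase 18.0. Predicted miRNAs came from MIREAP. The deposited degradome table was made by the authors with CleaveLand 3.0 and targetfinder. Its raw reads are counts at the site, its normalized reads are a signal equal to or below the raw reads, and the deposited p-value, alignment score and category score are those of the program. The sources used here give no genome release, no degradome depth and no thresholds for the CleaveLand run. A spreadsheet had turned 11 aligned ranges, none of a member, into dates.

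Sites, positions and shares were computed with SciPy 1.17.1, NumPy 2.4.6 and pandas 2.3.3 under Python 3.11.15, and plots were drawn with matplotlib 3.10.9. Intervals are exact and at the 95% level, Clopper-Pearson for shares, Poisson for counts and conditional binomial for ratios of counts. The functions were tested on simulated data. No test between conditions was possible, and none was run over members. Members and lists were chosen with earlier results of these data known. Named are all members, every other name with their sequence or seed, miR828, and the other predicted targets described as MYB, TT2 or DUO1. Of these, 12 were listed in the written design and ppa024074m, ppa019380m and ppa016603m were added later. Descriptions, places and site sequences come from copies of the study's supplementary tables, of which the alignments were held only in part, and none of the 11 transcripts matched the RefSeq gene table.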

Additional observations from a re-analysis of the deposited data

How the results depend on the processing

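No paired analysis was possible because each kind of library has 1 sample. Of 35 alternatives, 17 kept the value within a set tolerance (the 95% interval of a share or ratio, 1.5 times for a count, no change for a median) and 18 moved it further. Within it, 7 pairs of category 0 had the authors' p under 0.05, 7 sites of stretches as long as the miRNA were at position 10, and the member share of degradome reads was 1.87 to 2.11%. Without miR156 and miR157 in the denominator, which take most listed reads, the shares were 5.62% for miR858, 0.314% for miR159 and 0.00175% for miR319. For miR858 the share was 0.571% of known miRNAs, with and without a minimum of 10 reads, at which miR319 is lost and gives no value. Member pairs with the authors' p under 0.05 fell in number to 1 at p under 0.01 (ppa004612m), to 4 with a score of at most 3, and to 5 with at least 5 reads or, a setting chosen after seeing the data, with MYB descriptions only. The median degradome reads of miR858 were 18.5 with at least 5 reads or with MYB descriptions only, and 10.5 without ppa016135m, the site with most reads. For miR159 and miR319 they were 10, 3.5 and 5.0, the last without ppa004612m, and the median score was 3.25 with at least 5 reads and 3.75 with MYB descriptions only. The members held 2.06% of the reads of 393 listed sites, and 3.69% without the site with the most reads. Counts of 2 to 5 reads limit ppa022205m, ppa008877m, ppa003628m, ppa017436m and ppa017451m, whose intervals all overlap.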

Other observations

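miR319 had only 4 small RNA reads and was listed with the lowest authors' p. The pairs of miR164 (7402 small RNA reads) and miR395 (17) that share this p have the same score, 2.5, and the same category, 0. Of 416 known miRNAs with at most 4 reads, 72 were listed with a transcript and 5 with a p under 0.05, and of 141 with more reads, 42 and 22. The 5 were miR319 (22 reads at its site), miR838 (32), miR1223 (9), miR5371 (5) and miR1030 (5). Within the pairs of miR858 a better score did not bring a lower p in category 0: the authors' p was 0.0205 at a score of 3 and 0.0156 at 3.5.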
